A study of Homo sapiens with 8 samples.

Results

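Zinc finger genes of the ZNF series on human chromosome 19 were followed through RNA sequencing of HCT116 cells, a colorectal cancer cell line, and of UF1hypo cells, a UHRF1 hypomorph of HCT116. The members were taken by name and place alone: every gene whose symbol is ZNF with a number and at most 1 closing letter and which lies on chromosome 19. This gave 264 of the 60649 gene identifiers, 246 of them protein-coding and 18 pseudogenes. A further 297 ZNF genes on other chromosomes and 1226 other protein-coding genes of chromosome 19 served for comparison.

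Each line carried either shScr, a control hairpin, or shUHRF1, a hairpin against UHRF1, which gave 4 groups of 2 libraries and 8 libraries in all. UF1hypo is a single clone in which 1 allele of UHRF1 was disrupted, so the clone and the genotype cannot be told apart. The cells were virus-infected, puromycin-selected pools, and the time of harvest behind these libraries is not given in the sources used here. The labels do not say that the 2 libraries of a group came from separate cultures, and p-values then measure only the spread between these libraries, which may be technical.

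UHRF1 reads hemimethylated DNA and recruits the maintenance methyltransferase DNMT1. Chromosome 19 carries large tandem clusters of C2H2 zinc finger genes, many of which encode a KRAB domain ahead of an array of DNA-contacting fingers. KRAB zinc finger proteins bind chosen sequences, often in transposable elements, and silence them through TRIM28 and the histone methyltransferase SETDB1, and several of the genes have CpG-rich promoters that are methylated in carcinomas.

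The level of a gene is given here in TPM, a unit of transcript abundance scaled for transcript length and library size. UHRF1 itself stood in HCT116 at a TPM of 87.5 and 98.4 with shScr and of 31.7 and 32.7 with shUHRF1. In UF1hypo it stood at 47.3 and 50.6 with shScr and at 34.1 and 21.1 with shUHRF1. Both shUHRF1 libraries of each line were below both shScr libraries, and the 2 UF1hypo shUHRF1 libraries were unlike each other. For 5 epithelial markers the summed TPM in HCT116 was 4341 to 4396 under shScr, against 5471 to 5590 under shUHRF1. In UF1hypo the sum was 8799 to 9072 under shScr, against 9840 to 12687 under shUHRF1. It was thus already higher in the clone under the control hairpin. There the mean of KRT8 was 3476, against 1552 in HCT116 shScr, and KRT18 and KRT19 were also higher. EPCAM went the other way on knockdown in UF1hypo, with a mean of 342 in shScr, against 244 in shUHRF1, while the other 4 markers had higher means. The sum of 5 fibroblast markers was 21.1 to 28.6 in the other 6 libraries and 37.9 and 65.5 in UF1hypo shUHRF1, with 1 of the 5 above a TPM of 1 and 1 at 0 throughout. The sum of 3 endothelial markers, none above 1, was 0.0708 to 0.216 in the other 6 and 0.343 and 0.587 in UF1hypo shUHRF1. The sum of 5 leukocyte markers, none above 1, was 0.0177 to 0.990 in the other 6 and 0.975 and 2.11 in UF1hypo shUHRF1. All 4 sums thus had their highest value in UF1hypo shUHRF1, and their part in the results below was not tested. Aligned bases were 5.42 to 7.83 gigabases a library.

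Of the 246 encoded proteins, 202 held a short letter pattern typical of the KRAB box. The pattern misses some KRAB domains, so its absence does not show that a domain is lacking. The proteins held 1 to 36 matches to the C2H2 finger pattern, with a median of 12. The median GC content of the members' transcripts was 42.02%, against 49.2% over all protein-coding genes. Related fingers make related transcripts: a median of 4.27% of a member's transcript lay in stretches of 50 bases that another gene also holds, and 17 members shared over 50% of their transcript. The values of these 17 are uncertain, since reads from near-identical stretches can be split between genes.

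The promoters of 6 members are shown because they belong to genes whose levels carry the results below: ZNF404, ZNF426, ZNF530 and ZNF548 were called higher on knockdown in UF1hypo, ZNF432 passed the test there below the fold threshold, and ZNF91 was lower in the clone. The sequences come from RefSeq (GRCh38.p14), which held a promoter for 216 of the 264 members, and run 5′ to 3′ over the 200 bases before the RefSeq start, with each CpG in capitals.
ZNF404 (chr19:43883965-43884164, minus strand): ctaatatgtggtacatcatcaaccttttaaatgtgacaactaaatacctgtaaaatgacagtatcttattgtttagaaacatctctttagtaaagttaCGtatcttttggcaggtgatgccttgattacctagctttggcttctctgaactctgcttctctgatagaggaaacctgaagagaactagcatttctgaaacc
ZNF426 (chr19:9538646-9538845, minus strand): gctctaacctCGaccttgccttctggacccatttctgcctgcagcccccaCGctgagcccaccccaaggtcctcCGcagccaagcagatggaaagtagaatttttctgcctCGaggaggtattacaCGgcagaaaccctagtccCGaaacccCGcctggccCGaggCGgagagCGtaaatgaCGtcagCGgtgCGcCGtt
ZNF530 (chr19:57599685-57599884, plus strand): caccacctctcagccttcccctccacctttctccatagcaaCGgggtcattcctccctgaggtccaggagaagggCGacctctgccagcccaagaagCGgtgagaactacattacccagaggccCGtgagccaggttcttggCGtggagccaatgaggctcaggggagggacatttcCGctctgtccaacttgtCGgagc
ZNF548 (chr19:57389654-57389853, plus strand): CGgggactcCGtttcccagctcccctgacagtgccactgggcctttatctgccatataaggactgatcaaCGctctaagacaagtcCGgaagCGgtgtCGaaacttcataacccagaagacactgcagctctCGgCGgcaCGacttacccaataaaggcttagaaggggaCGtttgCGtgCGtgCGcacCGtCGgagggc
ZNF432 (chr19:52048839-52049038, minus strand): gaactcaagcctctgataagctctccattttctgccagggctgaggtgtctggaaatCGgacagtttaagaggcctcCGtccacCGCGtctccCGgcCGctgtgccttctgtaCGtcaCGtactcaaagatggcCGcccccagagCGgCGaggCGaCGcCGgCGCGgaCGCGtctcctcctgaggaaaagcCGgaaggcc
ZNF91 (chr19:23395472-23395671, minus strand): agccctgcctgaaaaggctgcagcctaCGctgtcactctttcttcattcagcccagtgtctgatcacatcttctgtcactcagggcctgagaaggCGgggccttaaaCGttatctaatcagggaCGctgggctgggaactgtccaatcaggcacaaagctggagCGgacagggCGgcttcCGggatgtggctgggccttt

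The 200 bases held 1 CpG at ZNF404, 14 at ZNF426, 7 at ZNF530, 15 at ZNF548, 19 at ZNF432 and 7 at ZNF91. At the RefSeq start, the 4 called genes shown thus ranged from 1 to 15 CpG. For ZNF404 and ZNF432 the RefSeq start lies inside the annotated extent of the gene, so another start further out is also annotated. The bases before that outer start were not scored, and which start the cells use is not known. CpG was searched as the letters CG, which read the same on both strands, and 96.8% of the 22198 promoters of protein-coding genes in the table held at least 1 in the 250 bases before the start.

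A large share of the family was not detected in any library. Of the 264 members, 48 were listed at 0 in all 8 libraries, 48 stayed between 0 and 1 without being 0 throughout, and 168 exceeded a TPM of 1 in at least 1 library. Of the last, 132 exceeded it in all 8 libraries, and 36 members had a mean TPM above 10. Without read counts, the limit that a listed 0 allows is unknown. A listed 0 can also be a failed estimate: ZNF177 and ZNF497 were each at 0 in 1 library and above 1 in its replicate, and they are named after their values were seen.

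The members without the KRAB letters held the top of the range. The 8 highest mean levels belonged to ZNF428, ZNF146, ZNF787, ZNF581, ZNF580, ZNF579, ZNF574 and ZNF444, none of which had the letters. ZNF146, a protein made of fingers with almost no other sequence, had a TPM of 91.2 and 91.2 in HCT116 with shScr and 85.3 and 82.9 with shUHRF1, and in UF1hypo 66.8 and 55.5 with shScr and 26.7 and 70.6 with shUHRF1. Its HCT116 libraries sat above all 4 UF1hypo libraries, and of the 4 pairs of libraries the UF1hypo shUHRF1 pair was the farthest apart. ZNF580 and ZNF581 overlap on the same strand, and ZNF146 overlaps ZNF565 on the other strand. The median of the members' mean TPM was 1.91 for the 202 genes with the letters and 10.1 for the 44 protein-coding genes without them.

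Where a gene lay went with whether it was detected. Splitting the members wherever the next one started more than 1000000 bases away gave 17 groups, 9 of them with 5 or more members (252 members in all), and these clusters are named here by their first and last gene. The cluster from ZNF101 to ZNF254 (chr19:19668796-24129968) held 24 of the 48 members at 0. These included ZNF93, ZNF43, ZNF208, ZNF676 and ZNF729. The cluster from ZNF565 to ZNF573 held 9 of the 48, that from ZNF628 to ZNF446 held 7 and that from ZNF653 to ZNF791 held 5. No member of the cluster from ZNF575 to ZNF296 was at 0 throughout, and 21 of its 25 members exceeded 1 in at least 1 library.

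**Figure D1:**
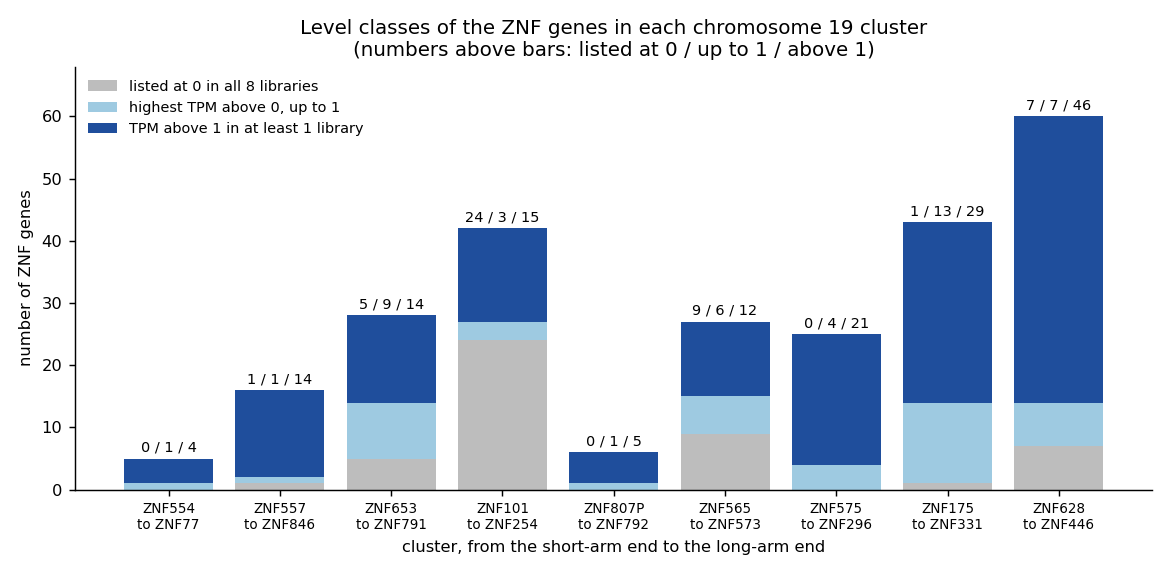
Number of ZNF genes (vertical axis) in each of the 9 chromosome 19 clusters (horizontal axis, ordered along the chromosome), split by the highest TPM over the 8 libraries; the numbers above each bar give the genes listed at 0, up to 1 and above 1. The cluster from ZNF101 to ZNF254 has 24 genes at 0 and 15 above 1, while that from ZNF575 to ZNF296 has 0 and 21.

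Taken over all clusters, the undetected members had fewer CpG ahead of their start than the detected ones. Within the 250 bases before the start, the 37 undetected members with a promoter entry had a median of 13 CpG, and 35.1% had 15 or more. The 117 with an entry that exceeded a TPM of 1 in all libraries had a median of 17, and 65.0% had 15 or more. Over all 22198 promoters the median was 16 and the share 54.6%. Position and CpG number went together: the cluster from ZNF101 to ZNF254 had a median of 8 CpG over 29 promoters, and the clusters from ZNF175 to ZNF331 and from ZNF628 to ZNF446 each had 18.5. In the first of these the detected ZNF85, ZNF714 and ZNF100 had 8 CpG each, as had the undetected ZNF93 and ZNF682, named after their values were seen. The cluster from ZNF565 to ZNF573, with 9 members at 0, had a median of 18 over 25 promoters. CpG number and detection were not tested within clusters.

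Knockdown in HCT116 asked what a partial lowering of UHRF1 did in the parental line. No member was called. A call here is an adjusted p below 0.05 (limma on log2(TPM + 1), Benjamini-Hochberg over all protein-coding genes that exceeded a TPM of 1 in any of the 4 libraries) together with a log2 fold change above 1 in size. Of 154 members tested, 0 passed an adjusted p of 0.05 at any fold and 5 had an unadjusted p below 0.05, 4 higher and 1 lower. Over all 12704 genes tested the calls were also few, at 0.0472% higher and 0.0236% lower, so a count of 0 members is near the background. With 2 libraries against 2, an exact permutation test of a single gene cannot go below p = 0.33, and the test across genes borrows its spread from all of them. The spread of a gene came from all 8 libraries, among them the UF1hypo shUHRF1 pair. The members' levels correlated at 0.92 within that pair and at 0.97 within each other pair. UHRF1 itself, at a log2 fold change of -1.50, had a limma adjusted p of 0.056 here. A count of 0 thus does not show that no member responded.

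The members' distribution in HCT116 sat near 0. Their median log2 fold change was 0.04, against -0.03 over all genes tested. Both shUHRF1 libraries lay above both shScr libraries for 36 members (23.4%; 20.1% of all genes) and below them for 27 (17.5%; 29.3% of all genes). ZNF428 had a TPM of 63.7 and 71.6 in shScr and 104 and 115 in shUHRF1, a log2 fold change of 0.69 with an adjusted p of 0.27. Its groups did not overlap, but the difference did not pass the test.

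In UF1hypo most tested members had a higher mean level with shUHRF1 than with shScr, and few of them passed the threshold. Of 160 members tested, 5 were called higher and 0 lower (3.12%; 7.39% of all 13620 genes tested were called higher and 1.14% lower). The members' share of calls was thus below the background. Of the 160, 13 exceeded a TPM of 1 only in a shUHRF1 library and 1 only in a shScr library, so these entered the test through 1 group alone, which by itself favours a difference in its direction. Among the 131 tested members that exceeded 1 in all 8 libraries, 2 were called, and with no TPM filter 5 of 201 were called higher and 0 lower. At an adjusted p below 0.05 and any fold, 12 members passed, all of them higher (7.5%; 13.3% of all genes), and 40 had an unadjusted p below 0.05, 38 of them higher. In bulk RNA, fewer cells that express a gene and less of its RNA per cell cannot be told apart.

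The shift was broad and small. The median log2 fold change of the 160 members was 0.34, against 0.04 over all genes, 0.08 over 218 ZNF genes of other chromosomes and 0.23 over 914 other protein-coding genes of chromosome 19. It was above 0 for 124 members (77.5%; 53.5% of all genes and 70.3% of the other chromosome 19 genes). Over the 131 members that exceeded a TPM of 1 in all 8 libraries the median was 0.30, and 103 were above 0. Both shUHRF1 libraries lay above both shScr libraries for 68 members (42.5%; 30.6% of all genes) and below them for 7 (4.38%; 18.3% of all genes). A shift in the same direction was thus also present among the neighbouring genes of the chromosome. No test of these medians against each other was made, as genes are not replicates.

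**Figure D2:**
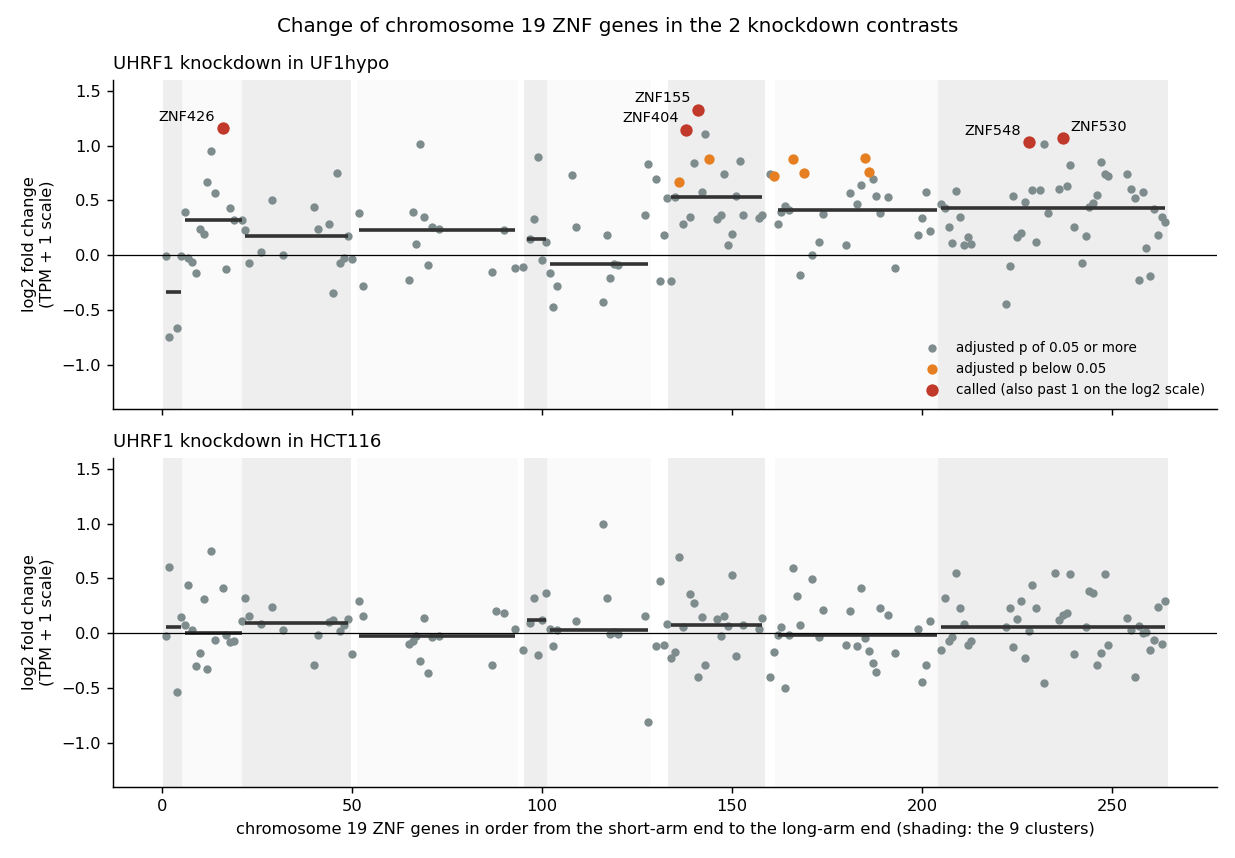
Log2 fold change on the TPM + 1 scale (vertical axis) of each tested ZNF gene in its order along chromosome 19 (horizontal axis), for the knockdown in UF1hypo (top) and in HCT116 (bottom); shading marks the 9 clusters, black bars are cluster medians, orange points have an adjusted p below 0.05 and red points are called. All 12 coloured points lie in the top panel and above 0, and only ZNF426 is on the short arm side.

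The summed TPM of all 264 members was 1324 and 1292 in HCT116 with shScr and 1382 and 1370 with shUHRF1, and in UF1hypo 1264 and 1269 with shScr and 1550 and 1680 with shUHRF1. The last pair lay above the other 6 libraries and was farther apart than any other pair. Within that pair the second library exceeded the first by a median of 0.36 on the log2 scale over 163 members, and 73.6% of them were higher in it, while the other genes of chromosome 19 differed by a median of -0.41 and all genes differed by 0.05. In the remaining 3 groups the members' median difference between libraries was -0.05 to -0.01. The 2 UF1hypo shUHRF1 libraries therefore disagree in direction between the zinc finger genes and their neighbours, and results that rest on 1 of them are given with and without it. Without the first, the members' median was 0.50, and without the second it was 0.20.

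Among the 5 called genes, ZNF404 (chr19:43872365-43901385) encodes 14 finger matches and shares no stretch of 50 bases of its transcript with another gene. It overlaps annotated long non-coding RNA genes on its own strand, to which reads may also have been given. Its TPM was 0.275 and 0 in HCT116 with shScr and 0.0405 and 0.2104 with shUHRF1, and in UF1hypo 0.146 and 0.307 with shScr and 1.36 and 2.11 with shUHRF1. Only the UF1hypo shUHRF1 pair exceeded 1, and no other library came near it. The log2 fold change in UF1hypo was 1.14 ± 0.23 (SE, n = 2 against 2; limma adjusted p = 0.015), and on the log2(TPM + 1) scale it understates the change of so low a gene. ZNF404 passed the TPM filter only through the shUHRF1 libraries, where it was high, so its test is given as a description. With no TPM filter the adjusted p was 0.011. With a pseudocount of 0.1 in place of 1 the value was 2.50, with an adjusted p of 0.068. The stretch shown above for ZNF404, which holds 1 CpG, lies before the inner RefSeq start, and the outer start was not scored.

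ZNF426 (chr19:9523223-9538645), with 11 finger matches, had a TPM of 1.40 and 0.742 in UF1hypo with shScr and 3.05 and 4.13 with shUHRF1. In HCT116 it had 1.48 and 1.31 with shScr and 2.37 and 2.01 with shUHRF1. The shUHRF1 libraries were the higher ones in both lines, and the difference passed the test in UF1hypo alone, where the log2 fold change was 1.16 ± 0.24 (SE; limma adjusted p = 0.015) against 0.41 in HCT116 (adjusted p = 0.93). The 2 changes were not shown to differ, since the difference of 0.75 between the lines had an adjusted p of 0.29.

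ZNF530 (chr19:57599885-57612722) and ZNF548 (chr19:57389850-57402992) belong to the last cluster of the long arm. ZNF530 had a TPM of 1.04 and 1.54 in UF1hypo with shScr and 3.40 and 4.17 with shUHRF1, and in HCT116 1.22 and 1.51 with shScr and 1.99 and 1.34 with shUHRF1. ZNF548 had 3.25 and 3.27 in UF1hypo with shScr and 7.66 and 7.78 with shUHRF1, and in HCT116 3.93 and 3.75 with shScr and 3.19 and 4.78 with shUHRF1. For both genes the HCT116 groups overlapped and the UF1hypo groups were well apart. The log2 fold changes in UF1hypo were 1.07 ± 0.23 for ZNF530 (SE; limma adjusted p = 0.019) and 1.03 ± 0.22 for ZNF548 (SE; limma adjusted p = 0.017). ZNF548 overlaps 3 other annotated protein-coding genes on its own strand, to which reads may also have been given.

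ZNF155 (chr19:43967862-43998326) had the largest called change and the least certain measurement, as 56.7% of its transcript lies in stretches that other genes share. Its TPM was 1.74 and 2.19 in HCT116 with shScr and 1.29 and 1.198 with shUHRF1, and in UF1hypo 1.26 and 0.279 with shScr and 2.45 and 4.27 with shUHRF1. It was lower with shUHRF1 in HCT116 and higher in UF1hypo, and in neither line did the groups overlap. The log2 fold change in UF1hypo was 1.33 ± 0.32 (SE; limma adjusted p = 0.028), and the difference between the lines, 1.72, had an adjusted p of 0.069. Among the 141 members that shared under 5% of their transcript, 91 were tested, 2 were called and the median was 0.28.

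These 5 calls rested on the spread borrowed from all 8 libraries. When the 4 UF1hypo libraries were fitted alone, the adjusted p of the 5 genes was 0.095 to 0.14 and 0 members were called. Leaving out 1 library also moved the count: it was 3 without UF1hypo shScr replicate 1, 0 without UF1hypo shScr replicate 2, 18 without UF1hypo shUHRF1 replicate 1 and 2 without UF1hypo shUHRF1 replicate 2. The 12 members with an adjusted p below 0.05 at any fold became 0 with the 4 libraries alone, 3 and 0 without the first and second UF1hypo shScr library, and 40 and 32 without the first and second UF1hypo shUHRF1 library. After correction for GC content and length they numbered 40, of which 39 were higher.

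The remaining 7 of the 12 members with an adjusted p below 0.05 in UF1hypo, named after their values were seen, were ZNF428, ZNF223, ZNF473, ZNF350, ZNF432, ZNF600 and ZNF28, with log2 fold changes of 0.67 to 0.89. ZNF28 overlaps ZNF468 on the same strand. ZNF473, which takes part in the processing of replication-dependent histone transcripts, had a TPM of 8.57 and 8.91 in UF1hypo with shScr and 14.6 and 15.6 with shUHRF1, against 8.84 and 9.13 in HCT116 shScr and 8.67 and 7.12 in HCT116 shUHRF1. ZNF350, also known as a partner of BRCA1, had 1.52 and 1.86 in UF1hypo with shScr and 3.27 and 4.71 with shUHRF1. In HCT116 it had 1.96 and 1.42 with shScr and 3.25 and 2.82 with shUHRF1, a log2 fold change of 0.59 with an adjusted p of 0.72. ZNF473 was thus highest in the 2 UF1hypo shUHRF1 libraries, and the ZNF350 libraries with shUHRF1 were the higher ones in both lines.

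ZNF223 and ZNF432 were low, and like ZNF404 they passed the TPM filter only through the UF1hypo shUHRF1 libraries, where they were high. Their place among the 12 members is therefore a description. With no TPM filter their adjusted p was 0.0059 and 0.0054. ZNF223 was listed at 0 in all 4 HCT116 libraries and had a TPM of 0.296 and 0.0211 in UF1hypo with shScr and 1.21 and 1.02 with shUHRF1, though 62.4% of its transcript is shared with other genes and another annotated gene covers it on the same strand. ZNF432 had 0.111 and 0.107 in HCT116 with shScr and 0.0923 and 0.0343 with shUHRF1, and in UF1hypo 0.317 and 0.367 with shScr and 1.07 and 1.46 with shUHRF1. It overlaps ZNF841 on the same strand. Of 93 protein-coding members at a TPM of 1 or less in every shScr library of both lines, 5 exceeded 1 in both UF1hypo shUHRF1 libraries, ZNF404, ZNF223, ZNF234, ZNF233 and ZNF432 (5.38%; 6.89% of the 7086 such genes among all protein-coding ones and 12.2% of the 386 among the other chromosome 19 genes). In both HCT116 shUHRF1 libraries 0 of the 93 did (0.339% of the 7086). The members' share was thus near or below that of all genes.

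Traces below a TPM of 1 followed the same libraries. Of the 246 protein-coding members, 72 to 76 were listed at 0 in each of the first 6 libraries and 57 and 52 in the 2 UF1hypo shUHRF1 libraries. Among all 19942 protein-coding genes, likewise, the number at 0 was 4603 to 5332 in the first 6 and 3617 and 3613 in the last 2. Among the 61 members at 0 in the other 6 libraries, 9 were above 0 in both UF1hypo shUHRF1 libraries (14.8%; 11.2% of the 3316 such genes among all protein-coding ones), and the highest of these reached a TPM of 0.407. The 9, named after their values were seen, were ZNF429, ZNF260, ZNF284, ZNF229, ZNF841, ZNF528, ZNF331, ZNF549 and ZNF256. No member was above 0 in both libraries of any other group and at 0 in the remaining 6.

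Along the chromosome, the 3 large clusters of the distal long arm had the highest medians. In the cluster from ZNF575 to ZNF296, the median log2 fold change in UF1hypo was 0.53 over 21 members, 20 of which were above 0. Its summed TPM was 145 and 145 in HCT116 with shScr and 192 and 194 with shUHRF1, and in UF1hypo 164 and 160 with shScr and 247 and 242 with shUHRF1. The summed TPM was higher with shUHRF1 in both lines, but ZNF428 made up the largest part of it, with 63.7 and 71.6 in HCT116 shScr and 104 and 115 in HCT116 shUHRF1. The cluster's median log2 fold change in HCT116 was 0.07 over 18 members, 12 of which were above 0, so the sum there is not a measure of the whole cluster. The clusters from ZNF175 to ZNF331 and from ZNF628 to ZNF446 had medians of 0.41 (23 of 25 above 0) and 0.43 (40 of 45 above 0).

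Elsewhere the medians were lower or turned on 1 library. The clusters from ZNF557 to ZNF846, from ZNF653 to ZNF791, from ZNF101 to ZNF254 and from ZNF807P to ZNF792 had medians of 0.32, 0.18, 0.23 and 0.14, and that from ZNF565 to ZNF573 had -0.08, with 5 of 12 above 0. All 4 tested members of the short-arm cluster from ZNF554 to ZNF77 were below 0, with a median of -0.33. In the cluster from ZNF101 to ZNF254 the median was 0.72 without UF1hypo shUHRF1 replicate 1 and -0.41 without replicate 2, and the summed TPM of these 2 libraries was 36.8 and 81.2, against 51.3 and 40.6 in UF1hypo shScr. The cluster from ZNF565 to ZNF573 moved likewise, from 0.23 to -0.32. The cluster from ZNF175 to ZNF331 had 0.73 and 0.17 in the same fits, and its summed TPM in these 2 libraries was 186 and 269. The cluster from ZNF575 to ZNF296 had 0.67 and 0.52, and that from ZNF628 to ZNF446 had 0.34 and 0.44. Clusters were not tested against each other.

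**Figure D3:**
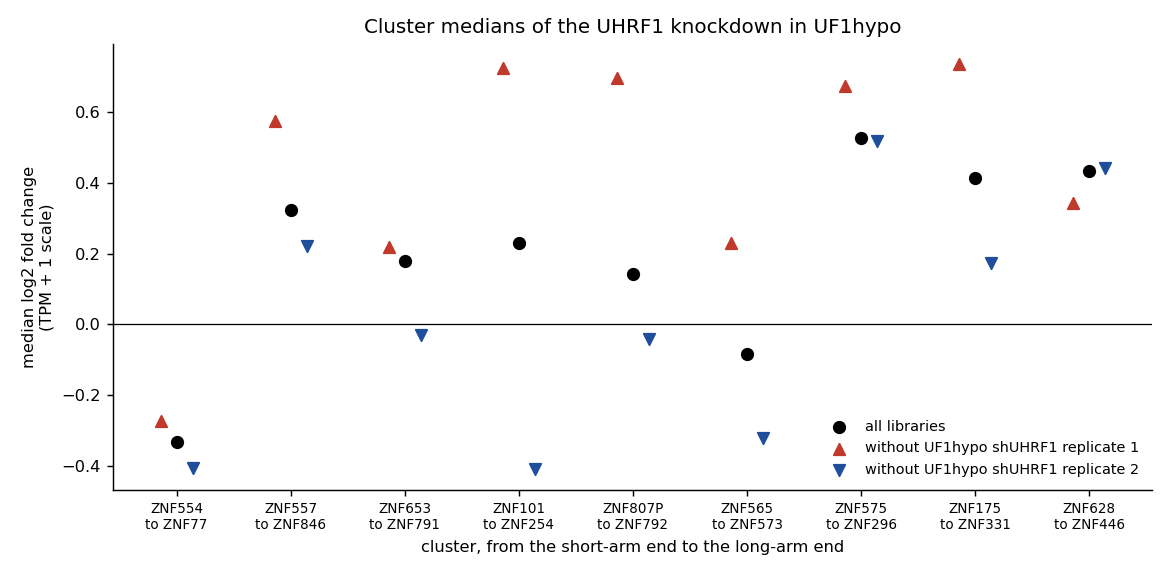
Median log2 fold change on the TPM + 1 scale (vertical axis) of the tested ZNF genes of each cluster (horizontal axis, ordered along the chromosome) for the knockdown in UF1hypo, with all libraries (black circles), without UF1hypo shUHRF1 replicate 1 (red triangles) and without replicate 2 (blue triangles). The cluster from ZNF101 to ZNF254 runs from -0.41 to 0.72, while that from ZNF575 to ZNF296 stays between 0.52 and 0.67.

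The median in UF1hypo was 0.35 over 127 genes with the KRAB letters and 0.30 over 33 without them, and the 5 calls all fell among the former. The difference was not tested.

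Whether the knockdown acted otherwise in UF1hypo than in HCT116 was tested as the difference of the 2 effects. Of 163 members, 0 passed this test in limma with Benjamini-Hochberg adjustment (4.54% of all 13781 genes were called higher and 0.559% lower), and 24 had an unadjusted p below 0.05. The median difference was 0.20, against 0.08 over all genes and 0.22 over the other genes of chromosome 19. The 2 knockdown contrasts share no library: of 151 members tested in both, 66 were above 0 in both, 15 below 0 in both, 50 above 0 in UF1hypo only and 20 in HCT116 only. The share with the same sign in both lines was 53.6%, against 54.6% of all genes. With its sign kept, the log2 fold change was higher in UF1hypo than in HCT116 for 110 members (72.8%, against 53.2% of all genes). That share was 64.1% for the other chromosome 19 genes and 59.0% for the ZNF genes on other chromosomes. It restates the sign of the difference and does not compare the sizes of the changes.

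UF1hypo shScr against HCT116 shScr compared the clone with its parent. ZNF91, a KRAB protein with 31 finger matches that silences SVA retrotransposons, was the 1 member called, out of 153 tested, and it was lower (0.949% of all 12856 genes were called lower and 2.59% higher). Its TPM was 2.41 and 1.90 in HCT116 with shScr and 2.85 and 2.38 with shUHRF1, and in UF1hypo 0.213 and 0.198 with shScr and 0.363 and 0.852 with shUHRF1. All 4 UF1hypo libraries lay below all 4 HCT116 libraries. The log2 fold change between the shScr groups was -1.38 ± 0.25 (SE; limma adjusted p = 0.016), and leaving out any 1 of the 4 libraries gave an adjusted p of 0.075 to 0.16. Here ZNF91 passed the TPM filter only through the HCT116 libraries, where it was high, and with no filter its adjusted p was 0.013. This contrast shares its libraries with both knockdown contrasts.

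Beyond ZNF91, 0 members passed an adjusted p of 0.05 in limma between the 2 lines, and 8 members in all had an unadjusted p below 0.05. The members' median was 0.00, against -0.05 over all genes. Both UF1hypo shScr libraries were above both HCT116 shScr libraries for 34 members (22.2%; 29.1% of all genes) and below them for 39 (25.5%; 37.2% of all genes). The cluster that holds ZNF91, from ZNF101 to ZNF254, had a median of -0.31, with 2 of 14 members above 0.

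Of 14 members known for promoter methylation in carcinomas, 10 stayed at a TPM of 1 or less in every library. ZNF382, ZNF471, ZNF568 and ZNF667 were listed at 0 in all 8 libraries, and ZNF132, ZNF177, ZNF577 and ZNF671 exceeded it in at least 1. Of 4 tested in UF1hypo, 0 were called (7.39% of all genes were called higher), and their median was 0.41, of the size of the 0.34 over all tested members. ZNF671 was among the 4 only through a shUHRF1 library. ZNF331, an imprinted gene, was listed at 0 in the first 6 libraries and had 0.301 and 0.407 in UF1hypo shUHRF1. ZNF577 had a TPM of 2.40 and 2.26 in UF1hypo with shScr and 3.92 and 2.89 with shUHRF1, a log2 fold change of 0.39 (limma adjusted p = 0.28). ZNF671 had 0.725 and 0.444 in UF1hypo with shScr and 1.15 and 0.0497 with shUHRF1, so its 2 knockdown libraries fell on either side of the controls. ZNF582, ZNF583, ZNF418 and ZNF677 reached at most 0.0610.

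Of 8 members known to bind transposable elements, 6 exceeded a TPM of 1 in at least 1 library, while ZNF93, a binder of LINE elements, and ZNF534 were at 0 throughout. Of 5 tested in UF1hypo, 0 were called (7.39% of all genes were called higher). All 5 log2 fold changes were above 0, as were 77.5% of those of all tested members, and their median was 0.58. ZNF765 had a TPM of 6.12 and 4.76 in UF1hypo with shScr and 8.26 and 8.86 with shUHRF1, with a log2 fold change of 0.58 (limma adjusted p = 0.12). ZNF587 had 7.34 and 13.2 in UF1hypo with shScr and 10.3 and 28.3 with shUHRF1, so its groups overlapped.

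The partners through which KRAB proteins act were measured as a list of 18 genes, all above a TPM of 1 in at least 1 library. No gene of the list was called in any of the 4 contrasts. TRIM28, the corepressor, had a TPM of 755 and 745 in HCT116 with shScr and 916 and 791 with shUHRF1, and in UF1hypo 738 and 683 with shScr and 745 and 540 with shUHRF1. SETDB1 had 33.1 and 32.0 in HCT116 with shScr and 35.9 and 41.2 with shUHRF1, and in UF1hypo 32.8 and 37.8 with shScr and 24.3 and 27.1 with shUHRF1. The log2 fold change of SETDB1 in UF1hypo was -0.44, with a limma adjusted p of 0.13. Most of the list moved the same way there: 4 of the 18 genes were above 0 (53.5% of all genes) and the median was -0.15. CHD3 (-0.60, limma adjusted p = 0.053) and CBX5 (-0.59, limma adjusted p = 0.17) were among those that fell further than SETDB1. Under the control hairpin the list was already lower in UF1hypo than in HCT116. The median of that contrast was -0.23, with 4 of the 18 genes above 0 (44.6% of all genes). UHRF1, which is on the list, fell by 0.84 in UF1hypo (adjusted p = 0.041; 0.20 with the 4 libraries alone) and stood at -1.50 in HCT116 (adjusted p = 0.056). ZNF274, a member on the long arm that brings SETDB1 to zinc finger gene clusters, had 8.45 and 9.21 in UF1hypo with shScr and 14.98 and 12.9 with shUHRF1, a log2 fold change of 0.60 (adjusted p = 0.074).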

How the data were processed

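Reads had been cleaned by the authors with Fastp, mapped to GRCh38 by HISAT2 2.0.4 and turned into abundances by StringTie 2.1.4. The deposited TPM values are scaled for length and library. The FPKM values deposited by the authors and the deposited coverage were used only for depth, taken as their ratio. Neither lists reads per gene, and counting error was not estimated. The members and lists were chosen with earlier results of these data known.

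Levels were tested as log2(TPM + 1) with limma 3.58.1 in R 4.3.3, with a mean-dependent prior, on all 8 libraries and 4 groups. Genes were protein-coding (GENCODE 44) that exceeded a TPM of 1 in any library of the contrast. A call needed an adjusted p below 0.05 and a log2 fold change above 1 in size. The study's count model was not run, as no counts were used. Named members were, by rule, the called ones, the 8 highest in level and the listed ones, and others are marked. Shared sequence and promoters were scored with Python 3.11.15. The fit was also run on simulated data with larger changes than those of the called members. That run does not bear on calls of their size. Alternatives were another pseudocount, filter, scaling, GC and length correction, gene set and sample set, a replicate block and each library left out.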

Additional observations from a re-analysis of the deposited data

Results flagged for a closer look

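In 19 members both shUHRF1 libraries moved clear of both shScr libraries in 1 direction in HCT116 and in the opposite direction in UF1hypo. This was 11.7% of 163 members and 10.2% of all 13781 genes, and none of the 19 passed the test of the difference. The value given is the UF1hypo log2 fold change minus the HCT116 one. It was above 0, with the UF1hypo libraries the ones that were higher with shUHRF1, for ZNF155 (1.72), ZNF573 (1.64), ZNF222 (1.39), ZNF233 (1.28), ZNF431 (1.27), ZNF114 (1.14), ZNF599 (1.09), ZNF649 (0.95), ZNF28 (0.93), ZNF544 (0.92), ZNF473 (0.90), ZNF765 (0.87), ZNF432 (0.81), ZNF780B (0.80), ZNF628 (0.63) and ZNF317 (0.43). It was below 0 for ZNF585A (-1.42), ZNF555 (-1.35) and ZNF8 (-0.29).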

How the results depend on the processing

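The members' median change in UF1hypo stayed above 0 under every alternative run, from 0.20 to 0.50. The 5 members called there became 10 after correction for GC content and length and 0 with the 4 libraries alone, and 0 to 18 with 1 library left out (lower calls: 0 to 1). For the difference of the 2 effects, the correction gave 8 higher and 1 lower, and leaving out a library 0 to 12 higher, 0 to 2 lower and a median of 0.14 to 0.42. The HCT116 median was 0.075 with median-ratio scaling, 0.12 with the correction and 0.0081 to 0.064 with a library left out. The clone median was 0.034, 0.13 and -0.03 to -0.0064 in the same order, and its lower call went to 0 without any 1 library.

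Single genes that did not pass the test changed sign. In UF1hypo the correction gave -0.17 for ZNF444, -0.12 for ZNF574, -0.18 for ZNF581 and -0.11 for ZNF787. With 1 library left out the UF1hypo value ran from -1.16 to 0.21 for ZNF146, -0.17 to 0.38 for ZNF444, -0.0099 to 0.38 for ZNF574, -0.33 to 0.51 for ZNF581, -0.030 to 0.35 for ZNF787, -0.20 to 0.44 for ZNF671, -0.13 to 0.31 for ZNF808 and -0.39 to 0.070 for TRIM28. The HCT116 value ran from -0.31 to 0.18 for ZNF132, -0.49 to 0.27 for ZNF417, -0.16 to 0.027 for ZNF444, -0.051 to 0.17 for ZNF577 and -0.014 to 0.19 for ZNF581.

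A replicate block left the calls at 0 in HCT116, 5 in UF1hypo, 0 in their difference and 1 in the clone, and took the 12 members with an adjusted p below 0.05 to 6. Whether same-numbered libraries shared more than a number is not known. Their deviations correlated at 0.055 in HCT116 and 0.026 between the shScr groups, both near 0, but at -0.40 in UF1hypo. Under this numbering the replicate differences of UF1hypo shScr and UF1hypo shUHRF1 thus ran partly opposite to each other. What lay behind that value was not tested. A pseudocount of 0.1 also gave 6 members with an adjusted p below 0.05. Over the values of single genes and clusters, 856 kept their direction and side of the threshold or moved within the spread, 22 lost the call in the same direction, 27 gained it, 20 moved and 22 changed sign. The cause of these changes was not tested, and depth per gene was not examined.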

Other observations

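ZNF702P, a transcribed pseudogene at chr19:52966896-53037898 that was not tested because only protein-coding genes were, had a TPM of 0.0622 and 0 in HCT116 with shScr and 0.0222 and 0.0867 with shUHRF1, and in UF1hypo 0.831 and 1.28 with shScr and 6.03 and 2.66 with shUHRF1. All 4 UF1hypo libraries lay above all 4 HCT116 libraries. It was chosen after its values were seen.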
